A study of Mus musculus with 24 samples.

Results

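Collagen genes were taken as every protein-coding mouse gene in the count table whose symbol reads Col, a type number, the letter a and a chain number. Of the 33019 gene identifiers in the table, 44 met that rule. They fell into 11 fibrillar genes, 8 genes of the basement membrane and 25 genes of other types. The last class held 6 type VI chains, 9 fibril-associated chains, 3 short-chain network formers, 4 transmembrane collagens and 3 anchoring or unclassed chains. RNA of whole liver was sequenced in 24 libraries from C57BL/6J mice aged 2 months, 4 libraries for each of 6 genotypes. Hepatic loss of Atg5, Tsc1 and p62 made the group p62 TKO, and that of Atg5, Tsc1 and Nrf2 the group Nrf2 TKO. Loss of Atg5 and Tsc1 made DKO, loss of Atg5 alone Atg5 KO and loss of Tsc1 alone TSC1 KO, and WT livers were wild type. All 3 groups named DKO or TKO thus carried both the Atg5 and the Tsc1 deletion. Atg5 is needed to form autophagosomes, and Tsc1 restrains the growth kinase complex mTORC1. The autophagy receptor p62 is encoded by Sqstm1, and Nrf2, a transcription factor of antioxidant genes, by Nfe2l2. The labels and notes at hand name neither the driver nor the deleted exons, and they do not give the sex of the mice.

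Collagens are proteins built of 3 alpha chains wound into a triple helix, and each chain has a gene of its own. Fibrillar collagens of types I, III and V assemble into the cables that make up scar tissue in the liver, where hepatic stellate cells and portal fibroblasts are the best known makers of them. Type IV collagens form sheets, the basement membranes beneath bile duct cells and vessels, in which collagens XV and XVIII also sit, and endostatin is cut from the end of collagen XVIII. Type VI collagen makes beaded filaments near cells, and fibril-associated collagens such as XII, XIV and XVI bind to the surface of fibrils.

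Total counts ran from 10494080 to 13057467 per library, and collagen genes took between 0.0852% and 0.284% of them. Levels are given in CPM, read counts brought to a common library size after TMM scaling, which keeps a few abundant genes from setting the scale. Changes are log2 fold changes ± SE from edgeR's quasi-likelihood test, and called means that the p adjusted by Benjamini and Hochberg over all 15851 genes tested was under 0.05. Of the 44 collagen genes, 31 passed the filter on low counts and were tested while 13 were not. The filter asked for 0.847 CPM before TMM scaling in enough libraries, and 6 of the 31, Col4a4, Col4a5, Col4a6, Col8a1, Col8a2 and Col23a1, reached it in knockout libraries alone. Col4a3, Col6a5 and Col6a6 reached it in 1 WT library, Col7a1 in 2 and Col25a1 in 3. Thus 11 of the 31 reached it in fewer than 4 WT libraries. Since no label ties a library to its own mouse, the spread behind each p-value is that between these libraries, and it may be technical. Nfe2l2 averaged 11.7 ± 4.24 CPM in Nrf2 TKO and 113 ± 32.7 CPM in DKO (SD, n = 4 each). Sqstm1 had 249.2, 439.4, 363.2 and 773.8 CPM in replicates 1 to 4 labelled p62 TKO, against 728.9 to 1063.1 CPM in DKO and 508.2 to 690.9 CPM in WT. Its change in p62 TKO was -1.07 ± 0.25 against DKO (adjusted p = 0.0015) and -0.34 ± 0.25 against WT (adjusted p = 0.27), and the library labelled p62 TKO replicate 4 lay above every WT library. Without that library 3 collagen genes were called higher and 8 lower in p62 TKO against DKO, and 18 higher and 3 lower against WT. Atg5 stood at 43 ± 4.27 CPM in libraries labelled Atg5 KO and 26.8 ± 3.75 CPM in WT. Its highest mean was 83.7 ± 3.75 CPM in libraries labelled TSC1 KO, and those labelled DKO had 23.4 ± 2.28 CPM. Tsc1 stood at 31 ± 1.99 CPM in libraries labelled TSC1 KO and 35.1 ± 1.53 CPM in WT. Against WT, the counts of Atg5 and Tsc1 did not show the deletions in the single knockouts or in DKO. The DKO values were -0.19 ± 0.12 for Atg5 (adjusted p = 0.17) and 0.06 ± 0.19 for Tsc1 (adjusted p = 0.79). Atg5 was called higher than WT in p62 TKO (0.51, adjusted p = 0.0017) and Nrf2 TKO (0.61, adjusted p = 0.00054). Tsc1 was called lower in p62 TKO (-0.65, adjusted p = 0.0073), while its value of -0.22 in Nrf2 TKO did not pass (adjusted p = 0.37). Against WT, Sqstm1 counts did not show the p62 deletion in 1 of the 4 libraries labelled p62 TKO. Every genotype is named as labelled. The 6 hepatocyte markers summed to 31243.2 to 41804.8 CPM in p62 TKO, 65006.6 to 82500.3 in Nrf2 TKO, 11194.3 to 15974.3 in DKO, 41453.0 to 102420.2 in Atg5 KO livers, 71715.1 to 86645.1 in TSC1 KO and 71590.5 to 94754.8 in WT, with none of them at 0 in a whole group. All 6 were called lower in DKO than in WT, beside 32.3% of all genes. Replicate 1 of p62 TKO was the highest of its group in 25 of the 31 tested collagen genes and replicate 2 the lowest in 17. In Nrf2 TKO replicate 2 was the highest in 21 and replicate 3 the lowest in 20. On total counts alone as the scale, the median log2 fold change over all genes moved to 1.07 in DKO against WT, to -0.48 in p62 TKO against DKO and to -0.71 in Nrf2 TKO against DKO. Changes are therefore given relative to the TMM scale.

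Levels per kilobase of exon let genes be set roughly side by side. The length was that of a gene's annotated exons, such as 12426 bases for Col1a2 and 6563 for Col1a1. Expressed transcripts may be shorter, which would shift the sums and shares below. On this scale collagen RNA of WT liver was mostly Col18a1. Its share of the summed collagen level was 47.8% ± 7.32 in p62 TKO, 44.1% ± 13 in Nrf2 TKO, 38.2% ± 1.32 in DKO, 51.6% ± 7.70 in Atg5 KO, 69.2% ± 6.18 in TSC1 KO and 78.8% ± 4.05 in WT (SD, n = 4 each). The summed fibrillar level was 80.6 ± 15.6 CPM per kb in p62 TKO, 117 ± 64.3 in Nrf2 TKO, 58.2 ± 5.02 in DKO, 51.0 ± 9.51 in Atg5 KO, 56.1 ± 23.1 in TSC1 KO and 21.1 ± 4.45 in WT. Every knockout library lay above every WT library in that sum, with 37.7 in the lowest knockout library, one of TSC1 KO, and 27.5 in the highest WT library. Without Col5a2 the fibrillar sum was 51.4 ± 16.4 CPM per kb in p62 TKO, 37.6 ± 17.5 in Nrf2 TKO, 54.4 ± 4.79 in DKO, 49.5 ± 9.37 in Atg5 KO, 17.4 ± 2.50 in TSC1 KO and 20.7 ± 4.47 in WT. The separation of TSC1 KO and of 2 Nrf2 TKO libraries from WT thus rested on Col5a2, since without it TSC1 KO spanned 13.9 to 19.2 and WT 17.1 to 27.1, and the lowest Nrf2 TKO library had 20.5. The summed level of the type IV chains was 20.3 ± 7.20 CPM per kb in p62 TKO, 13.1 ± 3.72 in Nrf2 TKO, 37.1 ± 5.13 in DKO, 16.7 ± 3.23 in Atg5 KO, 5.92 ± 1.28 in TSC1 KO and 6.43 ± 0.578 in WT. DKO libraries were the highest for type IV, with 32.3 as their lowest value against 27.6 as the highest elsewhere, and TSC1 KO overlapped WT. The summed level of the other types was 20.1 ± 8.41 CPM per kb in p62 TKO, 20.9 ± 7.76 in Nrf2 TKO, 25.9 ± 1.68 in DKO, 24.2 ± 5.14 in Atg5 KO, 9.33 ± 1.83 in TSC1 KO and 10.9 ± 2.08 in WT.

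**Figure D1:**
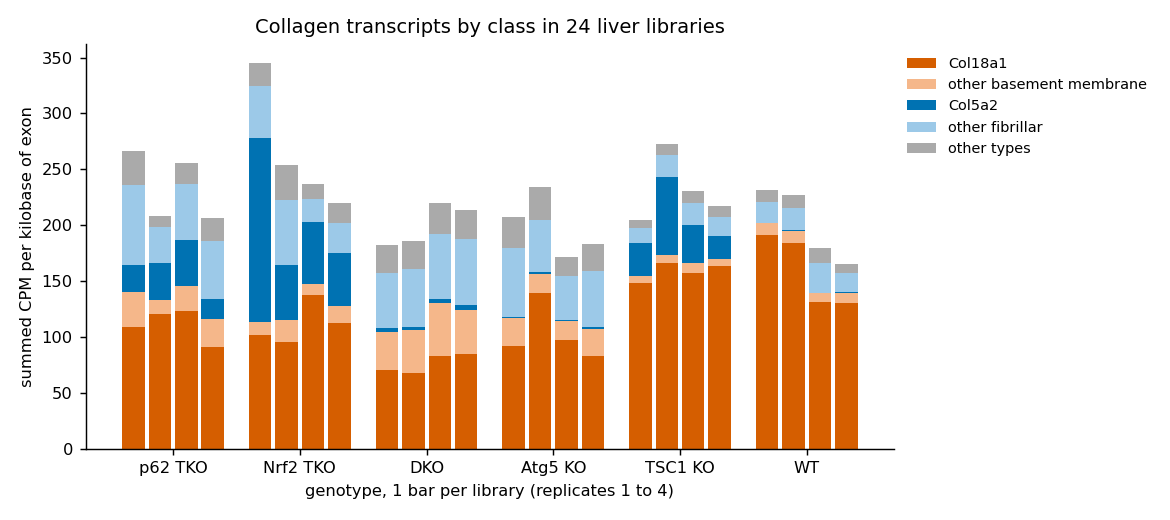
Summed collagen level per library in CPM per kilobase of exon (y axis), with 1 bar for each of the 24 libraries grouped by genotype (x axis) and colours for Col18a1, the other basement membrane genes, Col5a2, the other fibrillar genes and the other types. Col18a1 made up 78.8% of the sum in WT and 38.2% in DKO on average, and Col5a2 made up 28.1% in Nrf2 TKO and 16.2% in TSC1 KO against 0.208% in WT. In Nrf2 TKO the Col5a2 share was 47.7% in replicate 1 and 19.5% to 23.4% in the other replicates.

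The comparison of each knockout with WT asked which collagen genes change when autophagy is lost, when mTORC1 is released, or both. In DKO livers the chains of collagens I, III, IV, VI and VIII were higher than in WT, while the fibrillar genes Col5a3 and Col27a1 were lower. In Atg5 KO livers chains of collagens I, III, IV and VI were higher too. In TSC1 KO livers Col5a2 was 93.0-fold higher, and the chains of collagens I and III did not pass the test. In DKO against WT, 22 collagen genes were called higher and 6 lower of the 31 tested. Over all genes, 37.1% were called higher, 32.3% lower and 69.3% in either direction. With total counts alone 23 were called higher and 2 lower. In Atg5 KO against WT, 15 were called higher and 1 lower. Of the 15851 genes, 18.6% were called higher, 11.3% lower and 29.9% in either direction. In TSC1 KO against WT, 4 were called higher and 5 lower. Among all genes tested, 8.79% were called higher, 7.60% lower and 16.4% in either direction. The median log2 fold change over the tested collagen genes was 1.88 in DKO, 1.28 in Atg5 KO and -0.07 in TSC1 KO, each against WT. Over all genes tested the medians were 0.08, 0.00 and 0.01. A member that passed the filter only through a knockout group was bound to be higher there. The medians and the counts of higher calls, here and by class, therefore describe the genes that passed and not all 44. By class, the median in DKO against WT was 2.49 for the fibrillar genes (5 called higher and 3 lower of 8 tested). It was 2.31 for the basement membrane genes (6 higher and 1 lower of 8) and 1.67 for the other types (11 higher and 2 lower of 15). In Atg5 KO it was 1.53 for the fibrillar genes (5 higher of 8), 1.20 for the basement membrane genes (5 higher and 1 lower of 8) and 0.92 for the other types (5 higher of 15). In TSC1 KO it was 0.45 for the fibrillar genes (1 higher and 2 lower), 0.68 for the basement membrane genes (3 higher and 1 lower) and -0.44 for the other types (2 lower).

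**Figure D2:**
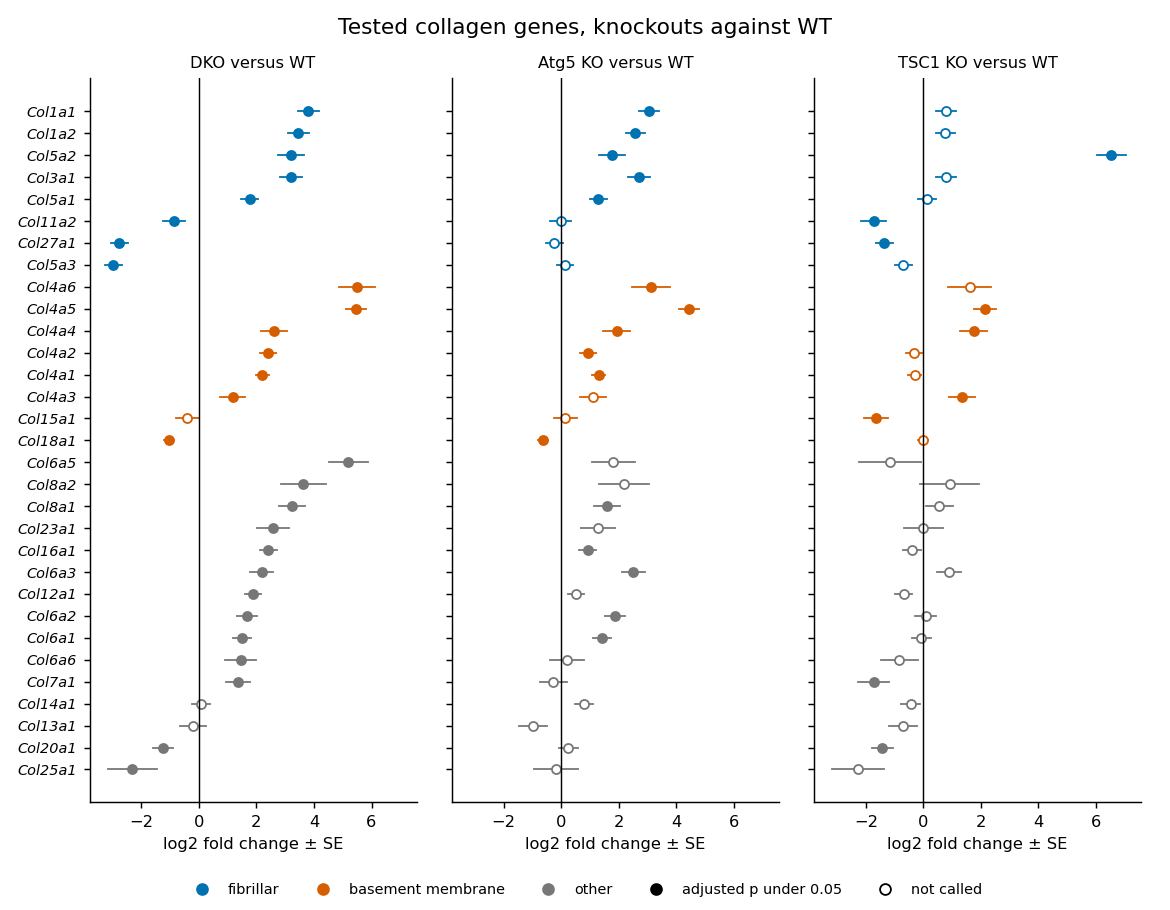
Log2 fold change (x axis, point, with a line of 1 SE to each side) of each tested collagen gene (y axis) in DKO, Atg5 KO and TSC1 KO, each against WT, coloured by class, with filled points for an adjusted p under 0.05. Col4a6 and Col4a5 lie farthest to the right in DKO at 5.50 and 5.47, Col5a2 does in TSC1 KO at 6.54, and Col5a3 and Col27a1 lie to the left in DKO at -2.97 and -2.76; the call and the direction of Col11a2 and the call of Col18a1 in DKO were lost with total counts alone.

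Type I collagen is a trimer of chains from Col1a1 and Col1a2, and with type III collagen it is the bulk of fibrous scar. In the order of replicates 1 to 4, Col1a1 stood at 149.4, 59.3, 93.0 and 94.8 CPM in p62 TKO, at 58.1, 94.9, 28.9 and 45.8 CPM in Nrf2 TKO and at 96.9, 112.2, 137.6 and 119.2 CPM in DKO. In Atg5 KO Col1a1 had 91.7, 51.4, 47.1 and 90.4 CPM, in TSC1 KO 8.86, 15.8, 18.5 and 15 CPM, and in WT 7.49, 6.24, 9.42 and 10.2 CPM. Libraries of the groups without Atg5 had 28.9 CPM or more, and TSC1 KO overlapped WT. Col1a1 was 13.9-fold higher in DKO than in WT (3.80 ± 0.36, adjusted p = 7.4e-09) and 8.40-fold higher in Atg5 KO (3.07 ± 0.35, adjusted p = 2.7e-06). In TSC1 KO against WT it did not pass (0.80 ± 0.35, adjusted p = 0.12). Col1a2, the partner chain, had 144.3, 60.9, 98.1 and 89.3 CPM in p62 TKO, 64.6, 95.8, 28.8 and 46.7 CPM in Nrf2 TKO and 106.6, 116.6, 132.7 and 122.7 CPM in DKO. In Atg5 KO Col1a2 had 88.2, 51.3, 45.7 and 75.5 CPM, in TSC1 KO 11.2, 21.5, 24.2 and 17.3 CPM, and in WT 9.76, 9.01, 15.3 and 9.26 CPM. DKO and Atg5 KO did not overlap each other or WT. It was called in DKO (3.46 ± 0.35, adjusted p = 1.6e-08) and in Atg5 KO (2.58 ± 0.34, adjusted p = 1.1e-05), and not in TSC1 KO (0.77 ± 0.34, adjusted p = 0.12). The ratio of Col1a1 to Col1a2 counts was 1.01 ± 0.0531 in p62 TKO, 0.968 ± 0.0458 in Nrf2 TKO, 0.970 ± 0.0538 in DKO, 1.07 ± 0.0900 in Atg5 KO, 0.790 ± 0.0550 in TSC1 KO and 0.796 ± 0.219 in WT.

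Col3a1, the only chain of type III collagen, is a homotrimer that forms thin fibrils together with type I. It stood at 297.8, 99.8, 199.8 and 222.4 CPM in p62 TKO, at 222.9, 290.6, 82.3 and 105.9 CPM in Nrf2 TKO and at 208.6, 201.4, 203.7 and 260.2 CPM in DKO. In Atg5 KO Col3a1 had 198.4, 154.0, 103.1 and 166.5 CPM, in TSC1 KO 25.9, 47.8, 52.6 and 37.3 CPM, and in WT 23, 20.8, 33.1 and 17.9 CPM. Its DKO, Atg5 KO and triple knockout libraries lay above every TSC1 KO and WT library. The increase over WT was 9.20-fold in DKO (3.20 ± 0.38, adjusted p = 1.8e-07) and 6.55-fold in Atg5 KO (2.71 ± 0.37, adjusted p = 1.8e-05). In TSC1 KO the value of 0.79 ± 0.36 did not pass (adjusted p = 0.14). Against WT, 37.1% of all genes were called higher and 32.3% lower in DKO. The shares were 18.6% and 11.3% in Atg5 KO and 8.79% and 7.60% in TSC1 KO, and the marker counts below stand beside them. Markers of myofibroblasts and portal fibroblasts were set beside Col1a1, Col1a2 and Col3a1. Of 11 such markers, 10 were called higher in DKO against WT, 8 in Atg5 KO and 2 in TSC1 KO. Their summed level was 69.6 to 221.5 CPM in p62 TKO, 73.4 to 223.1 in Nrf2 TKO, 194.5 to 313.5 in DKO, 65.9 to 154.9 in Atg5 KO livers, 32.4 to 50.6 in TSC1 KO and 19.5 to 35.7 in WT. No marker of the list was at 0 in a whole group. Of 11 markers of hepatic stellate cells, 4 were called higher and 4 lower in DKO against WT, near the shares over all genes, and 5 higher in Atg5 KO. Their median log2 fold change was -0.08 in DKO, 0.70 in Atg5 KO and -0.31 in TSC1 KO. Their summed level was 193.5 to 457.5 CPM in p62 TKO, 363.3 to 713.2 in Nrf2 TKO, 434.9 to 524.6 in DKO, 447.5 to 626.6 in Atg5 KO livers, 255.2 to 378.0 in TSC1 KO and 239.6 to 420.0 in WT. Of 6 macrophage markers, 4 were called higher and 1 lower in DKO against WT, 5 higher in Atg5 KO and 3 lower in TSC1 KO. Their summed level was 212.0 to 301.3 CPM in p62 TKO, 79.0 to 108.0 in Nrf2 TKO, 169.3 to 292.0 in DKO, 118.1 to 304.7 in Atg5 KO livers, 26.7 to 63.0 in TSC1 KO and 78.8 to 148.2 in WT, with no marker at 0 in a whole group. Of 8 endothelial markers, 3 were called higher and 2 lower in DKO, 1 higher in Atg5 KO and 1 higher in TSC1 KO. These endothelial counts lay near the shares over all genes. In whole liver, more or fewer cells of a type cannot be told apart from more or less RNA per cell, and the part of these cell types in the collagen changes was not tested.

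Type V collagen regulates the width of type I fibrils, and its 3 genes went separate ways. Col5a1, the chain found in most type V trimers, was higher in DKO (1.77 ± 0.29, adjusted p = 1.2e-05) and in Atg5 KO (1.29 ± 0.29, adjusted p = 0.0021) than in WT. In TSC1 KO it did not pass (0.13 ± 0.30, adjusted p = 0.81). Its means were 14.8 ± 6.06 CPM in p62 TKO, 15.4 ± 6.54 in Nrf2 TKO, 21.8 ± 4.29 in DKO, 15.7 ± 2.64 in Atg5 KO, 6.99 ± 1.05 in TSC1 KO and 6.37 ± 1.56 in WT. Col5a2, the usual partner of Col5a1 in the trimer, stood at 232.6, 318.7, 399.8 and 171.2 CPM in p62 TKO, at 1578.4, 475.9, 532.1 and 459.9 CPM in Nrf2 TKO and at 38.7, 31.5, 35.3 and 42.5 CPM in DKO. In Atg5 KO Col5a2 had 13.8, 19.5, 8.04 and 13 CPM, in TSC1 KO 282.5, 671.7, 333.8 and 196.2 CPM, and in WT 5.11, 3.58, 3.81 and 3.41 CPM. WT was lowest, Atg5 KO and DKO came next without overlap, and TSC1 KO with both triple knockouts lay above all DKO libraries. It was 93.0-fold higher in TSC1 KO than in WT (6.54 ± 0.51, adjusted p = 4.2e-08). The increase was 9.28-fold in DKO (3.21 ± 0.45, adjusted p = 2e-06) and 3.40-fold in Atg5 KO (1.77 ± 0.45, adjusted p = 0.0052). The ratio of Col5a2 to Col5a1 counts was 23.4 ± 16.3 in p62 TKO, 55.8 ± 39.6 in Nrf2 TKO, 1.72 ± 0.244 in DKO, 0.862 ± 0.256 in Atg5 KO, 54.1 ± 33.5 in TSC1 KO and 0.644 ± 0.136 in WT. Col5a2 (chromosome 1, 45374321 to 45503282, minus strand, GRCm38) and Col3a1 (45311538 to 45349706, plus strand) lie tail to tail, 24614 bases apart. Col5a2 was called in TSC1 KO and Col3a1 was not (0.79 ± 0.36, adjusted p = 0.14). Whether the changes of these neighbours differ was not tested.

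Col5a3, another chain of type V collagen, went the other way in DKO. It stood at 25.6, 42.4, 36.3 and 31.9 CPM in p62 TKO, at 42.8, 15.8, 26.9 and 13.8 CPM in Nrf2 TKO and at 11.9, 9.96, 12.4 and 5.87 CPM in DKO. In Atg5 KO Col5a3 had 95.8, 100.9, 90.3 and 56.4 CPM, in TSC1 KO 42.4, 56.0, 45.4 and 52.0 CPM, and in WT 69.5, 85.9, 101.7 and 57.6 CPM. Every DKO library lay below every library of the other 5 genotypes, and Atg5 KO overlapped WT. The change from WT was -2.97 ± 0.31 in DKO (adjusted p = 2.6e-08), 0.12 ± 0.28 in Atg5 KO (adjusted p = 0.78) and -0.69 ± 0.29 in TSC1 KO (adjusted p = 0.11). Col27a1, a fibrillar collagen known from cartilage, stood at 8.78, 5.72, 7.50 and 10.1 CPM in p62 TKO, at 11.9, 11.2, 4.16 and 5.89 CPM in Nrf2 TKO and at 6.11, 8.49, 9.27 and 3.86 CPM in DKO. In Atg5 KO Col27a1 had 55.9, 31.7, 37.7 and 33.8 CPM, in TSC1 KO 23.9, 15, 17.5 and 17.1 CPM, and in WT 35.7, 38.5, 64.7 and 49.3 CPM. The groups with both Atg5 and Tsc1 deleted did not overlap any other group and overlapped each other. Col27a1 fell in DKO (-2.76 ± 0.31, adjusted p = 6.4e-08) and in TSC1 KO (-1.36 ± 0.30, adjusted p = 0.0034). The value in Atg5 KO was -0.24 ± 0.29 (adjusted p = 0.56). Col11a2, a chain of the cartilage collagen XI, was scarce, with 0.775 ± 0.157 CPM in DKO, 0.422 ± 0.183 CPM in TSC1 KO and 1.42 ± 0.141 CPM in WT. Its decrease was called in TSC1 KO (-1.72 ± 0.43, adjusted p = 0.0083), and the value in DKO was -0.87 ± 0.37 (adjusted p = 0.043). That last call was lost without filter (-0.78, adjusted p = 0.15) and without any 1 of DKO replicates 1, 3 and 4 and WT replicates 1, 3 and 4 (-0.90 to -0.74). The value turned to 0.12 with total counts alone. Col2a1, Col11a1 and Col24a1 had at most 3, 5 and 8 reads in any library and were not tested.

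**Figure D3:**
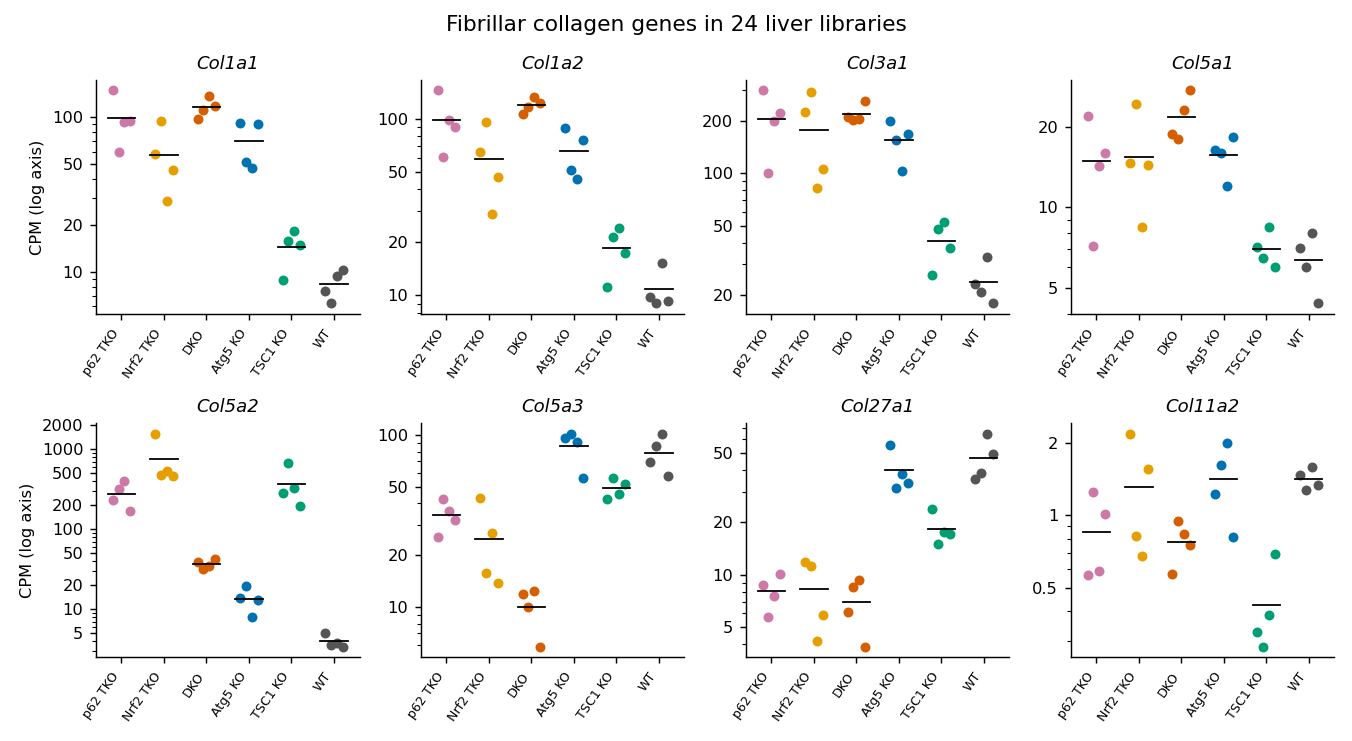
CPM (y axis, log scale) of the 8 tested fibrillar genes in each of the 24 libraries (points) by genotype (x axis), with a bar at the mean of 4 libraries. Col1a1, Col1a2 and Col3a1 are high in all genotypes without Atg5, Col5a2 is high in TSC1 KO and both triple knockouts with 1 Nrf2 TKO library at 1578.4 CPM, and Col5a3 is lowest in DKO.

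Promoter windows from RefSeq (GRCm38.p6, 250 bases before to 50 after each start, 300 in all) were in the table for 35 of the 44 genes, in 38 windows. They were not in it for Col1a1, Col2a1, Col4a3, Col5a2, Col9a3, Col12a1, Col14a1, Col22a1 and Col26a1. The windows of 3 genes are shown because these fibrillar genes rose (Col1a2, Col3a1) or fell (Col5a3) in DKO against WT. Capitals mark matches of the TATA box letters TATAAA or the CCAAT box letters CCAAT on either strand. They lie at chr6:4505368-4505667 on the plus strand (Col1a2), chr1:45311288-45311587 on the plus strand (Col3a1) and chr9:20815018-20815317 on the minus strand (Col5a3).
Col1a2: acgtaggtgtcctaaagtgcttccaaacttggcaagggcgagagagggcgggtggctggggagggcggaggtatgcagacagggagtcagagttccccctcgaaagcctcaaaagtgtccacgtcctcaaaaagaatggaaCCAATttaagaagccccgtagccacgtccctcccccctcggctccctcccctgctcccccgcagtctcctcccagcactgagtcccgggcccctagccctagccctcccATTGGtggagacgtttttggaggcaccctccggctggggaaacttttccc
Col3a1: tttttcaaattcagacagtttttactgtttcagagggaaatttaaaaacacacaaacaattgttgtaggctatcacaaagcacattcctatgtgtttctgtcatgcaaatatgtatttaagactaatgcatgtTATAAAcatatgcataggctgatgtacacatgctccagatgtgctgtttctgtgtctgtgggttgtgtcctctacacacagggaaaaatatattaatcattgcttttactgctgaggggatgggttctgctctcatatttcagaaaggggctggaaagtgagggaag
Col5a3: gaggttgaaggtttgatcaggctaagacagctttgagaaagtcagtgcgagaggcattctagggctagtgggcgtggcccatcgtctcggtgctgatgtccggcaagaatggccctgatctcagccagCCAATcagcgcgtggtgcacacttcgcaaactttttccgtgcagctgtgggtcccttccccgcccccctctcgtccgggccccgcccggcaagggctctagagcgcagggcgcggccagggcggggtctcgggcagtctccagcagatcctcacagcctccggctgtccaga
On either strand, TATAAA occurred in 13.2% of the 38 collagen windows, against 13.6% of all 32851 windows in the table, and CCAAT in 34.2% against 37.4%. The GC box letters GGGCGG occurred in 60.5% of collagen windows against 35.7% of all windows, and the core letters of the antioxidant response element that Nrf2 binds, TGACNNNGC, in 18.4% against 12.4%. The AP-1 letters TGANTCA, which can overlap that core, occurred in 2.63% against 7.81%, and the E-box CACGTG in 0 of 38 collagen windows against 7.15% of all. These are matches of letters in a window and say nothing of binding.

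Among the basement membrane genes, DKO livers had the highest mean levels of Col4a1, Col4a2, Col4a5 and Col4a6, while the mean of Col18a1 was highest in TSC1 KO and WT. Col4a1 and Col4a2 encode the chains of the common type IV trimer. Col4a1 stood at 104.5, 45.1, 74.8 and 86.2 CPM in p62 TKO, at 36.8, 62.4, 35.0 and 58.2 CPM in Nrf2 TKO and at 100.6, 107.7, 141.7 and 112.3 CPM in DKO. In Atg5 KO Col4a1 had 72.4, 52.3, 47.1 and 74.7 CPM, in TSC1 KO 15.2, 22.6, 25.1 and 18.2 CPM, and in WT 23, 27.0, 26.8 and 23.1 CPM. DKO and Atg5 KO did not overlap WT or each other, and TSC1 KO did overlap WT. It rose in DKO (2.21 ± 0.24, adjusted p = 2.5e-08) and in Atg5 KO (1.30 ± 0.23, adjusted p = 0.00023). Its value in TSC1 KO was -0.30 ± 0.23 (adjusted p = 0.41). Col4a2 stood at 61.7, 20.3, 44.7 and 55.3 CPM in p62 TKO, at 22.8, 38.3, 20 and 31.1 CPM in Nrf2 TKO and at 84.0, 89.4, 115.9 and 103.9 CPM in DKO. In Atg5 KO Col4a2 had 42.3, 33.1, 28.1 and 39.2 CPM, in TSC1 KO 8.96, 17.7, 16.5 and 15.6 CPM, and in WT 18.5, 21.7, 17.7 and 16.3 CPM. The 4 DKO libraries were above all 20 others. It rose in DKO (2.40 ± 0.27, adjusted p = 7.2e-08) and in Atg5 KO (0.94 ± 0.27, adjusted p = 0.010). The value in TSC1 KO was -0.33 ± 0.27 (adjusted p = 0.44). The ratio of Col4a1 to Col4a2 counts was 1.78 ± 0.296 in p62 TKO, 1.72 ± 0.117 in Nrf2 TKO, 1.18 ± 0.0640 in DKO, 1.72 ± 0.135 in Atg5 KO, 1.42 ± 0.240 in TSC1 KO and 1.36 ± 0.132 in WT. It lay between 1.08 and 1.22 in the DKO libraries and at 1.56 or more in the libraries of both triple knockouts and Atg5 KO.

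These chains are encoded in head-to-head pairs. Col4a1 (chromosome 8, 11198423 to 11312826, minus strand) and Col4a2 (11312805 to 11449287, plus strand) overlap by 22 bases on GRCm38, Col4a3 and Col4a4 start 71 bases apart on chromosome 1, and Col4a5 and Col4a6 start 1308 bases apart on chromosome X. The windows of Col4a1 (chr8:11312777-11313076, minus strand) and Col4a2 (chr8:11312555-11312854, plus strand) are shown because they share 78 bases, 11312777 to 11312854, which are in capitals and read on opposite strands.
Col4a1: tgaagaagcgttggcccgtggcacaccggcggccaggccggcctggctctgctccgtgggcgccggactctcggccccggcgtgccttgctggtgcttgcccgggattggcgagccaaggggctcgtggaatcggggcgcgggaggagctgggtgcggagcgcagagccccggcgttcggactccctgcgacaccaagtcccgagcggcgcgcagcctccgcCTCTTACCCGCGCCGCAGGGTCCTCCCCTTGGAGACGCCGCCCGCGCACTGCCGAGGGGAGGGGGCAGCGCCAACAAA
Col4a2: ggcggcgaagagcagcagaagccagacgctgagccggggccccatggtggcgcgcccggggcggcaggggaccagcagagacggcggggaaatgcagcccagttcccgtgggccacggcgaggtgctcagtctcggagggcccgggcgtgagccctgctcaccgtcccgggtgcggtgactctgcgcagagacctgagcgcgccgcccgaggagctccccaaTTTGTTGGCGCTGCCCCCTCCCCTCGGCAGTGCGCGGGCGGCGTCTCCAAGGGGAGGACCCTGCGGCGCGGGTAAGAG
Whether the counting used strand is not stated in the labels or notes, so reads from the overlap of such a pair could be assigned to either gene or dropped.

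Col4a5 and Col4a6 encode chains of the type IV trimers of smooth muscle and of some epithelia. Col4a5 stood at 20.4, 9.12, 12.9 and 20 CPM in p62 TKO, at 10.2, 12.6, 6.88 and 6.95 CPM in Nrf2 TKO and at 29.6, 34.2, 36.9 and 31.5 CPM in DKO. In Atg5 KO Col4a5 had 21.6, 10.5, 19.6 and 13.4 CPM, in TSC1 KO 2.62, 3.79, 4.06 and 2.76 CPM, and in WT 1.02, 0.578, 0.953 and 0.365 CPM. WT was below every knockout library and DKO above every other library. It was 44.2-fold higher in DKO than in WT (5.47 ± 0.35, adjusted p = 9.6e-12). The increase was 21.8-fold in Atg5 KO (4.45 ± 0.35, adjusted p = 1.9e-08) and 4.45-fold in TSC1 KO (2.15 ± 0.38, adjusted p = 0.00058). Col4a6 stood at 4.46, 0.894, 1.69 and 2.80 CPM in p62 TKO, at 1.68, 3.35, 1.55 and 1.55 CPM in Nrf2 TKO and at 9.60, 8.96, 11.5 and 12.9 CPM in DKO. In Atg5 KO Col4a6 had 3.43, 1.98, 1.11 and 1.78 CPM, in TSC1 KO 0.328, 0.569, 1.06 and 0.887 CPM, and in WT 0.567, 0.347, 0 and 0 CPM. With 8 reads in all of WT, its fold is set by few reads. The log2 change in DKO was 5.50 ± 0.62 (adjusted p = 4.3e-08), or 6.43 without WT replicate 1. In Atg5 KO it was 3.13 ± 0.66 (adjusted p = 0.001), or 4.10 without that library. Col4a3 and Col4a4, whose chains are known from the filter of the kidney, were scarce. Col4a4 was called higher in DKO (2.61 ± 0.45, adjusted p = 1.8e-05), Atg5 KO (1.93 ± 0.46, adjusted p = 0.0029) and TSC1 KO (1.75 ± 0.47, adjusted p = 0.013). Its means there were 3.68 ± 0.622, 2.29 ± 0.983 and 2.03 ± 0.354 CPM, against 0.589 ± 0.243 CPM in WT. Col4a3 was called in DKO (1.18 ± 0.44, adjusted p = 0.021), but not without DKO replicate 3 (0.97) or WT replicate 2 (0.91). It was also called in TSC1 KO (1.35 ± 0.45, adjusted p = 0.041), a call that was lost without filter (1.37) and when any of the 8 libraries other than WT replicate 3 was left out (1.15 to 1.45). A gene on the other strand overlaps 5.6% of its exon bases.

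Col18a1, the source of endostatin, had the highest mean level per kilobase of all collagen genes in every genotype. It stood at 767.4, 845.4, 865.4 and 638.2 CPM in p62 TKO, at 713.1, 671.9, 966.0 and 791.4 CPM in Nrf2 TKO and at 493.7, 479.1, 582.7 and 594.9 CPM in DKO. In Atg5 KO Col18a1 had 647.4, 981.8, 680.4 and 585.0 CPM, in TSC1 KO 1042.2, 1166.6, 1107.1 and 1146.7 CPM, and in WT 1339.9, 1290.3, 922.7 and 912.5 CPM. DKO lay below WT and TSC1 KO without overlap. On the TMM scale it was lower in DKO (-1.05 ± 0.17, adjusted p = 1.2e-05) and in Atg5 KO (-0.63 ± 0.17, adjusted p = 0.0089) than in WT. On total counts alone these values were -0.06 and -0.28 and neither passed. In TSC1 KO the value was 0.00 ± 0.17. Col15a1, the related chain of the outer basement membrane zone, stood at 19.2, 12.3, 17.1 and 11.6 CPM in p62 TKO, at 7.13, 9.66, 4.07 and 5.02 CPM in Nrf2 TKO and at 12.2, 20, 21.2 and 13.1 CPM in DKO. In Atg5 KO Col15a1 had 25.6, 12.2, 22.6 and 37.4 CPM, in TSC1 KO 10.9, 3.41, 6.86 and 6.90 CPM, and in WT 30.4, 26.6, 6.14 and 25.1 CPM. The WT libraries spread from 6.14 to 30.4 CPM and overlapped every other group. Col15a1 was called lower in TSC1 KO (-1.65 ± 0.42, adjusted p = 0.011, or 0.056 with only the 2 groups in the fit). It was not called in DKO (-0.41 ± 0.40, adjusted p = 0.37) or Atg5 KO (0.15 ± 0.40, adjusted p = 0.81).

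**Figure D4:**
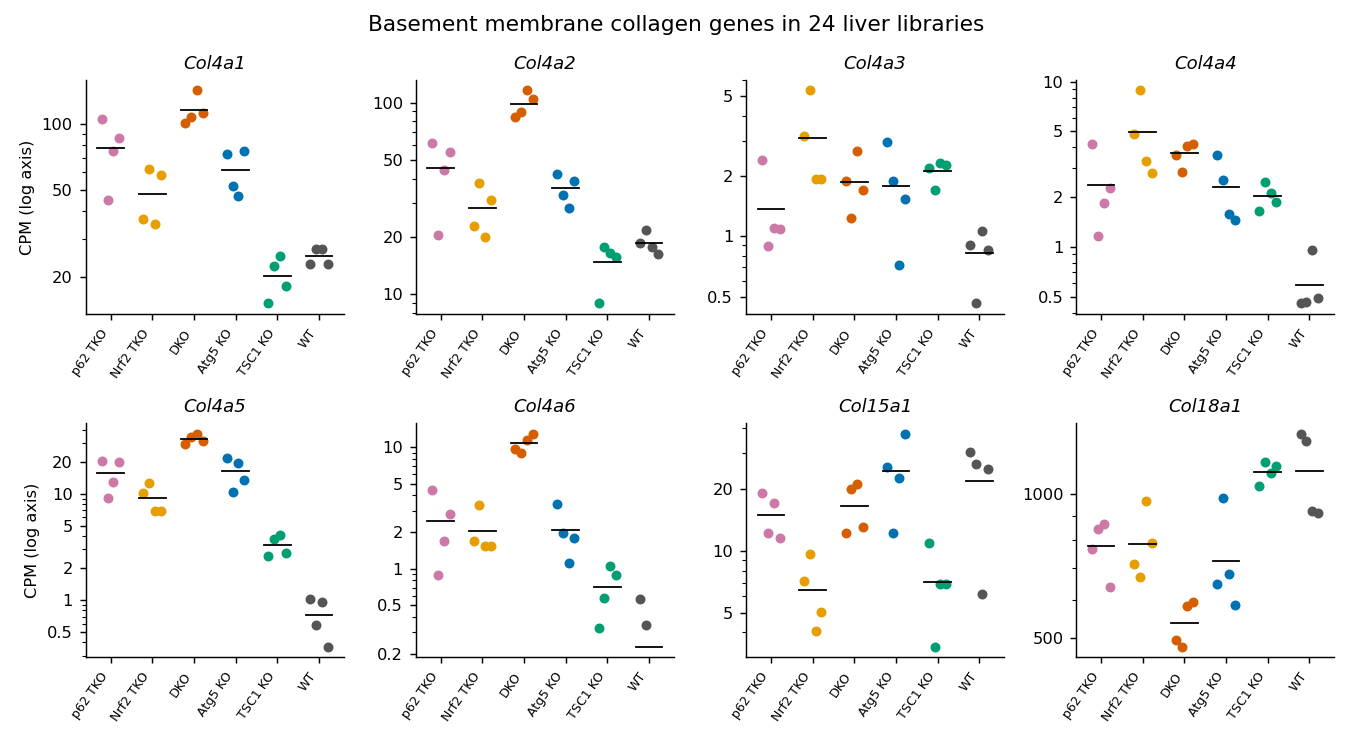
CPM (y axis, log scale) of the 8 basement membrane genes in each of the 24 libraries (points) by genotype (x axis), with a bar at the mean of 4 libraries; the WT libraries with 0 CPM of Col4a6 cannot be drawn on this axis. Col4a1, Col4a2, Col4a5 and Col4a6 have their highest means in DKO, with Col4a5 at 29.6 to 36.9 CPM there and 0.365 to 1.02 CPM in WT.

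Markers of cholangiocytes, the cells of bile ducts that rest on a basement membrane, and the partners of type IV collagen were set beside these genes. All 10 cholangiocyte markers were called higher in DKO and in TSC1 KO against WT, beside 37.1% and 8.79% of all genes. In Atg5 KO 9 of the 10 were, beside 18.6% of all genes. Their summed level was 2438.3 to 3669.5 CPM in p62 TKO, 1619.2 to 2898.6 in Nrf2 TKO, 6821.0 to 10209.0 in DKO, 455.8 to 1124.1 in Atg5 KO livers, 573.4 to 959.6 in TSC1 KO and 65.7 to 95.7 in WT. No marker was at 0 in a whole group, and the part of these cells in the type IV changes was not tested. In TSC1 KO, where these markers were called, Col4a3, Col4a4 and Col4a5 were called higher, while Col4a1, Col4a2 and Col4a6 did not pass. Of 15 laminins, nidogens and other partners that build the same sheet, 13 were called higher in DKO against WT (median 2.84), 10 in Atg5 KO (median 1.07) and 3 in TSC1 KO, with 1 lower (median -0.09). In DKO they included Lama5 (6.08 ± 0.31, adjusted p = 1.4e-12) and Lamb2 (4.29 ± 0.33, adjusted p = 1.8e-10), laminin chains, and Agrn (2.89 ± 0.17, adjusted p = 3.6e-12), a heparan sulfate proteoglycan. The summed level of the partners was 262.6 to 516.9 CPM in p62 TKO, 236.7 to 380.0 in Nrf2 TKO, 951.9 to 1213.0 in DKO, 261.4 to 342.5 in Atg5 KO livers, 124.5 to 181.8 in TSC1 KO and 113.4 to 158.7 in WT.

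Among the other types, the type VI chains Col6a1, Col6a2 and Col6a3 were higher in DKO and Atg5 KO than in WT, and the short-chain Col8a1 and Col8a2 were higher in DKO. Col6a3, the large chain of type VI collagen from which endotrophin is cut, stood at 72.8, 18.1, 41.1 and 53.3 CPM in p62 TKO, at 51.3, 66.1, 25.7 and 39.9 CPM in Nrf2 TKO and at 33.9, 55.9, 44.8 and 24.3 CPM in DKO. In Atg5 KO Col6a3 had 73.0, 42.5, 29.9 and 53.8 CPM, in TSC1 KO 8.96, 18.5, 23.6 and 13.6 CPM, and in WT 9.42, 9.70, 8.57 and 7.19 CPM. DKO and Atg5 KO overlapped each other and lay above WT. It rose in DKO (2.18 ± 0.40, adjusted p = 6.7e-05) and Atg5 KO (2.51 ± 0.41, adjusted p = 0.00012). The value in TSC1 KO was 0.89 ± 0.41 (adjusted p = 0.14). Col6a1, the first chain of the trimer, stood at 28.7, 7.78, 15.4 and 16.6 CPM in p62 TKO, at 21.5, 30.5, 12.9 and 18 CPM in Nrf2 TKO and at 23.8, 23.1, 20.2 and 39.5 CPM in DKO. In Atg5 KO Col6a1 had 25.7, 29.8, 18 and 28.2 CPM, in TSC1 KO 6.56, 10.3, 10.4 and 8.77 CPM, and in WT 8.85, 8.55, 11 and 9.50 CPM. Its neighbour Col6a2, 85161 bases away on chromosome 10, stood at 20, 4.47, 12.4 and 9.89 CPM in p62 TKO, at 14.4, 24.5, 8.33 and 14.9 CPM in Nrf2 TKO and at 14, 18.3, 15.6 and 20.2 CPM in DKO. In Atg5 KO Col6a2 had 19.1, 22.6, 12.8 and 23.9 CPM, in TSC1 KO 3.72, 6.35, 7.05 and 5.42 CPM, and in WT 4.76, 4.62, 6.88 and 5.12 CPM. Both genes lay above WT without overlap in DKO and Atg5 KO. Col6a1 rose in DKO (1.49 ± 0.31, adjusted p = 0.00019) and Atg5 KO (1.42 ± 0.31, adjusted p = 0.0015). Col6a2 rose in DKO (1.67 ± 0.35, adjusted p = 0.0002) and Atg5 KO (1.87 ± 0.35, adjusted p = 0.00038). Neither passed in TSC1 KO, with -0.07 ± 0.32 for Col6a1 and 0.08 ± 0.36 for Col6a2.

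Col6a5 and Col6a6 encode long chains that can take the place of Col6a3 in the trimer, and they lie 27917 bases apart on chromosome 9. Col6a5 stood at 21.9, 11.4, 14 and 3.58 CPM in p62 TKO, at 5.25, 4.16, 1.65 and 1.06 CPM in Nrf2 TKO and at 17.9, 20.9, 29.9 and 8.27 CPM in DKO. In Atg5 KO Col6a5 had 2.29, 2.52, 0.637 and 1.86 CPM, in TSC1 KO 0, 0.285, 0.193 and 0.394 CPM, and in WT 1.13, 0.231, 0.423 and 0.244 CPM. DKO was above the single knockouts, Nrf2 TKO and WT without overlap. It was called in DKO against WT (5.20 ± 0.68, adjusted p = 6.5e-07, or 5.94 without WT replicate 1). It was not called in Atg5 KO (1.81 ± 0.75, adjusted p = 0.073) or TSC1 KO (-1.16 ± 1.07, adjusted p = 0.49). Col6a6 averaged 3.41 ± 2.16 CPM in DKO and 1.26 ± 0.969 CPM in WT (1.45 ± 0.55, adjusted p = 0.024), a call that was lost without DKO replicate 3 (0.94) or WT replicate 1, 2 or 3 (1.11 to 1.29). The value was 2.11 without WT replicate 4.

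Among the fibril-associated genes, Col16a1 stood at 12.3, 4.74, 7.87 and 7.87 CPM in p62 TKO, at 5.94, 6.77, 2.81 and 4.73 CPM in Nrf2 TKO and at 19.9, 17.2, 25.8 and 12.6 CPM in DKO. In Atg5 KO Col16a1 had 8.84, 6.65, 4.46 and 6.89 CPM, in TSC1 KO 2.73, 2.75, 3.29 and 2.07 CPM, and in WT 3.40, 3.23, 4.23 and 3.29 CPM. All DKO libraries were above all others. It rose in DKO (2.41 ± 0.29, adjusted p = 1.5e-07) and in Atg5 KO (0.92 ± 0.29, adjusted p = 0.022). The value in TSC1 KO was -0.39 ± 0.32 (adjusted p = 0.43). The call in Atg5 KO was lost without Atg5 KO replicate 1 (0.76) or WT replicate 2 (0.87). Col12a1, which links fibrils to other matrix, rose in DKO (1.88 ± 0.28, adjusted p = 2.9e-06), to 13.8 ± 4.18 CPM against 3.73 ± 1.32 CPM in WT. Col14a1, a binder of fibril surfaces, stood at 50.8, 16, 34.8 and 49.5 CPM in p62 TKO, at 43.6, 78.4, 34.1 and 38.8 CPM in Nrf2 TKO and at 33.8, 33.1, 35.8 and 34.5 CPM in DKO. In Atg5 KO Col14a1 had 60.0, 79.1, 44.9 and 43.8 CPM, in TSC1 KO 15.7, 25.9, 28.0 and 26.6 CPM, and in WT 31.2, 39.8, 41.9 and 17.5 CPM. Its DKO libraries lay within the range of WT, and it did not pass in DKO (0.07 ± 0.32), Atg5 KO (0.80 ± 0.32) or TSC1 KO (-0.44 ± 0.33), with adjusted p-values of 0.85, 0.066 and 0.39. Col20a1 fell in DKO (-1.26 ± 0.35, adjusted p = 0.0026; -0.27 and not passing with total counts alone) and in TSC1 KO (-1.43 ± 0.37, adjusted p = 0.011). It averaged 0.838 ± 0.195 CPM in DKO, 0.741 ± 0.529 CPM in TSC1 KO and 2.02 ± 0.408 CPM in WT.

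Col8a1 and Col8a2, the chains of the short-chain collagen of vessel walls and corneal membranes, rose in DKO by 3.24 ± 0.44 (adjusted p = 6.9e-07) and 3.63 ± 0.78 (adjusted p = 0.00026; 4.34 without WT replicate 3). Col8a1 averaged 8.18 ± 3.55 CPM in DKO, 2.62 ± 1.37 in Atg5 KO, 1.26 ± 0.366 in TSC1 KO and 0.856 ± 0.082 in WT, and Col8a2 had 5 reads in all of WT. The transmembrane collagen Col23a1 rose in DKO (2.57 ± 0.55, adjusted p = 0.00025), to 2.43 ± 0.757 CPM against 0.403 ± 0.157 CPM in WT. Col25a1, a transmembrane collagen known from neurons, was called lower in DKO (-2.31 ± 0.84, adjusted p = 0.018; -1.30 and not passing with total counts alone). WT itself held 2.84, 1.96, 0 and 3.90 CPM. This call was lost without filter and without DKO replicate 3 or 4 (-2.13 and -2.11) or WT replicate 4 (-1.86). Col13a1, the transmembrane collagen of nerve-muscle contacts, did not pass in DKO, Atg5 KO or TSC1 KO against WT and averaged 2.88 ± 1.40 CPM in DKO and 3.30 ± 1.34 CPM in WT. Col7a1, which makes the anchoring fibrils of skin, rose in DKO (1.35 ± 0.42, adjusted p = 0.0063) and fell in TSC1 KO (-1.73 ± 0.54, adjusted p = 0.030). It averaged 2.61 ± 0.525 CPM in DKO, 0.299 ± 0.0785 CPM in TSC1 KO and 1.01 ± 0.489 CPM in WT. The decrease in TSC1 KO was not called without filter, with total counts alone or without any 1 of TSC1 KO replicates 1, 3 and 4 and WT replicates 1, 2 and 3 (-1.78 to -1.49). The members not tested were, beside the 3 fibrillar ones, Col6a4, Col9a1, Col9a2, Col9a3, Col10a1, Col17a1, Col19a1, Col22a1, Col26a1 and Col28a1, and the highest count of any of them in a library was 35, for Col9a3. When the filter was dropped, edgeR called 3 of these 13 higher in DKO than in WT, namely Col9a3 (74 reads over 4 DKO libraries and 15 over 4 WT libraries, adjusted p = 0.034), Col19a1 (16 and 0 reads, adjusted p = 0.031) and Col22a1 (22 and 2 reads, adjusted p = 0.034). Col9a3 was also called higher than in TSC1 KO (74 and 17 reads, adjusted p = 0.032). Against WT, p62 TKO had higher calls for Col9a1 (36 and 1 reads, adjusted p = 0.0038) and Col22a1 (27 and 2 reads, adjusted p = 0.0063).

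The next comparisons asked what the joint deletion adds to each single one. Against Atg5 KO, DKO livers had more RNA of 4 type IV chains, Col5a2, Col12a1, Col16a1 and Col8a1 and less Col5a3 and Col27a1, while Col3a1, Col6a1, Col6a2 and Col6a3 did not pass. In DKO against Atg5 KO 14 collagen genes were called higher and 6 lower of 31. Over all genes, 29.2% were called higher, 27.3% lower and 56.5% in either direction. With total counts alone 19 were higher and 3 lower. Col4a6 (2.36 ± 0.45, adjusted p = 0.00011), Col4a2 (1.46 ± 0.26, adjusted p = 5.1e-05), Col4a5 (1.02 ± 0.25, adjusted p = 0.0014) and Col4a1 (0.91 ± 0.22, adjusted p = 0.0015) rose. Of the main scar collagens, Col1a2 passed (0.88 ± 0.31, adjusted p = 0.019), but not without Atg5 KO replicate 2 (0.71) or 3 (0.74). Col1a1 (0.73 ± 0.31, adjusted p = 0.051) and Col3a1 (0.49 ± 0.34, adjusted p = 0.23) did not pass. Col6a1, Col6a2 and Col6a3 had values of 0.07, -0.20 and -0.33 and did not pass, while Col6a5 rose by 3.39 ± 0.56 (adjusted p = 2.4e-05). Col5a3 fell by 3.10 and Col27a1 by 2.52 on the log2 scale (SE 0.31 each, adjusted p = 3.5e-08 and 4.3e-07).

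Against TSC1 KO, DKO livers had more RNA of the chains of collagens I and III and of the tested type VI chains. Col4a1, Col4a2, Col4a5 and Col4a6 were higher too, while Col4a3 and Col4a4 did not pass. Col5a2, Col5a3, Col27a1 and Col18a1 were lower. In DKO against TSC1 KO 20 collagen genes were called higher and 4 lower of 31. Of the 15851 genes, 36.6% were called higher, 30.0% lower and 66.7% in either direction. Col1a1 was higher by 3.0 ± 0.34 (adjusted p = 1.3e-07), Col3a1 by 2.42 ± 0.36 (adjusted p = 5.8e-06) and Col4a2 by 2.74 ± 0.28 (adjusted p = 1.6e-08). Col5a2 fell by 3.33 on the log2 scale (SE 0.42, adjusted p = 5.4e-07), with all 4 DKO libraries below all 4 of TSC1 KO. Col5a3 had -2.29 ± 0.30 (adjusted p = 1e-06), Col27a1 -1.41 ± 0.30 (adjusted p = 0.00033) and Col18a1 -1.05 ± 0.17 (adjusted p = 1.3e-05). With total counts alone Col27a1 and Col18a1 did not pass (-0.54 and -0.19). In Atg5 KO against TSC1 KO 21 collagen genes were called higher and 2 lower of 31. Among all genes tested, 16.8% were called higher, 12.6% lower and 29.4% in either direction. The 2 that were lower were Col5a2 (-4.77 ± 0.45, adjusted p = 3.7e-07) and Col18a1 (-0.62 ± 0.17, adjusted p = 0.0089), and among the 21 were Col1a1 (2.27 ± 0.34, adjusted p = 4.1e-05) and Col3a1 (1.93 ± 0.36, adjusted p = 0.00042). DKO against each single knockout and each single knockout against WT share libraries, so these comparisons are not independent.

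An interaction term tested whether the effect of the Tsc1 deletion differed between livers without and with Atg5. It was called above 0 for 6 collagen genes and below 0 for 3 of 31. Over all genes, 15.5% were called above, 19.3% below and 34.8% in either direction. On total counts alone 11 were above and 2 below. For Col5a2 the change with the Tsc1 deletion was 1.45 without Atg5 (DKO against Atg5 KO) and 6.54 with it (TSC1 KO against WT; interaction -5.09 ± 0.61, adjusted p = 1.9e-06). For Col5a3 the values were -3.10 without Atg5 and -0.69 with it (interaction -2.41 ± 0.41, adjusted p = 0.00011). For Col4a1 they were 0.91 without and -0.30 with Atg5 (interaction 1.21 ± 0.32, adjusted p = 0.0057), and for Col4a2 1.46 without and -0.33 with it (interaction 1.79 ± 0.37, adjusted p = 0.00076). The term was also called for Col12a1 (2.03 ± 0.40, adjusted p = 0.00044), Col16a1 (1.88 ± 0.42, adjusted p = 0.0012) and Col7a1 (3.36 ± 0.68, adjusted p = 0.00048). It was called for Col6a5 (4.55 ± 1.21, adjusted p = 0.0057), though not without WT replicate 1 (3.75), and for Col27a1 (-1.16 ± 0.42, adjusted p = 0.034). Few reads stand behind 2 of these terms. Col7a1 had 12 reads in all of TSC1 KO, 36 in WT and 41 in Atg5 KO, and Col6a5 had 9 in TSC1 KO and 18 in WT. The call of Col27a1 was lost without filter (-1.11), with total counts alone (-0.68) and without any 1 of DKO replicates 1 and 4, Atg5 KO replicate 1, TSC1 KO replicate 1 and WT replicates 1 and 2 (-1.14 to -0.96). For Col1a1, Col1a2 and Col3a1 it was -0.07 ± 0.46, 0.10 ± 0.46 and -0.29 ± 0.49 and did not pass, with adjusted p-values of 0.92, 0.89 and 0.69.

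The triple knockouts asked what loss of p62 or Nrf2 changes on top of the joint deletion. In both triple knockouts Col5a2 and Col5a3 were higher and Col4a2, Col4a5, Col4a6, Col12a1 and Col16a1 lower than in DKO. Type I chains were lower in Nrf2 TKO and did not pass in p62 TKO, and Col3a1 and the type VI chains Col6a1, Col6a2 and Col6a3 passed in neither. In p62 TKO against DKO 3 collagen genes were called higher and 8 lower of 31 (median -0.54, beside -0.02 over all genes). Of the 15851 genes, 22.3% were called higher, 21.5% lower and 43.8% in either direction. With total counts alone 2 were higher and 14 lower, and without p62 TKO replicate 1 the calls were 3 higher and 14 lower. In Nrf2 TKO against DKO 4 were called higher and 13 lower (median -0.42, beside -0.05 over all genes). Among all genes tested, 26.7% were called higher, 29.2% lower and 55.9% in either direction. On total counts alone 1 was higher and 16 lower. Both comparisons use the same DKO libraries, and their values are set side by side for that reason only.

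By class, the fibrillar median was 0.02 in p62 TKO against DKO (2 higher of 8) and -0.03 in Nrf2 TKO against DKO (2 higher and 2 lower). The basement membrane median was -0.60 in p62 TKO (1 higher and 4 lower of 8) and -1.31 in Nrf2 TKO (1 higher and 5 lower). The other types had -0.63 in p62 TKO (4 lower of 15) and -0.42 in Nrf2 TKO (1 higher and 6 lower). Col5a2 was 7.58-fold higher in p62 TKO (2.92 ± 0.41, adjusted p = 9.5e-06) and 20.6-fold higher in Nrf2 TKO (4.36 ± 0.44, adjusted p = 5.3e-08) than in DKO, and no library of either overlapped DKO. Col5a3 rose in p62 TKO (1.76 ± 0.30, adjusted p = 7.5e-05) and in Nrf2 TKO (1.30 ± 0.30, adjusted p = 0.0009), but in Nrf2 TKO not with total counts alone (0.63). Col1a1 had -0.23 ± 0.31 in p62 TKO (adjusted p = 0.57) and -1.03 ± 0.31 in Nrf2 TKO (adjusted p = 0.0082). Col1a2 had -0.28 ± 0.30 in p62 TKO (adjusted p = 0.48) and -1.02 ± 0.31 (adjusted p = 0.008) in Nrf2 TKO. Each Nrf2 TKO library lay below each DKO library for both genes.

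Col4a6 fell to 2.46 ± 1.54 CPM in p62 TKO and 2.03 ± 0.879 CPM in Nrf2 TKO, against 10.7 ± 1.79 CPM in DKO. The change was -2.11 ± 0.44 in p62 TKO (adjusted p = 0.00052) and -2.38 ± 0.45 in Nrf2 TKO (adjusted p = 0.00012). Col4a2 fell by 1.11 (SE 0.26, adjusted p = 0.0013) in p62 TKO and by 1.81 (SE 0.26, adjusted p = 5.2e-06) in Nrf2 TKO on the log2 scale. Col4a5 fell by 1.08 (SE 0.25, adjusted p = 0.0013) in p62 TKO and by 1.84 (SE 0.26, adjusted p = 2.8e-06) in Nrf2 TKO. Col4a1 was lower by 1.26 in Nrf2 TKO (SE 0.23, adjusted p = 6e-05). Its call in p62 TKO (-0.57 ± 0.22, adjusted p = 0.040) was lost without filter (-0.64), with only the 2 groups in the fit (-0.56), and without p62 TKO replicate 2 or 3 (-0.36 and -0.55) or DKO replicate 3 or 4 (-0.47 and -0.59). Col18a1 was higher in p62 TKO (0.54 ± 0.17, adjusted p = 0.015) and Nrf2 TKO (0.55 ± 0.17, adjusted p = 0.0098) on the TMM scale. With total counts alone neither passed, with 0.06 in p62 TKO and -0.14 in Nrf2 TKO. Col15a1 fell in Nrf2 TKO (-1.35 ± 0.42, adjusted p = 0.0089) and had -0.14 ± 0.40 in p62 TKO (adjusted p = 0.80). Col8a1 fell in Nrf2 TKO (-2.51 ± 0.40, adjusted p = 1.4e-05), as did Col6a5 (-2.65 ± 0.53, adjusted p = 0.00024). In p62 TKO their values of -0.79 ± 0.36 and -0.59 ± 0.48 did not pass. Col16a1 fell by 1.20 (SE 0.27, adjusted p = 0.00095) in p62 TKO and by 1.89 (SE 0.28, adjusted p = 5.2e-06) in Nrf2 TKO. Col12a1 fell by 1.26 (SE 0.27, adjusted p = 0.00054) in p62 TKO and by 1.67 (SE 0.27, adjusted p = 1.8e-05) in Nrf2 TKO.

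**Figure D5:**
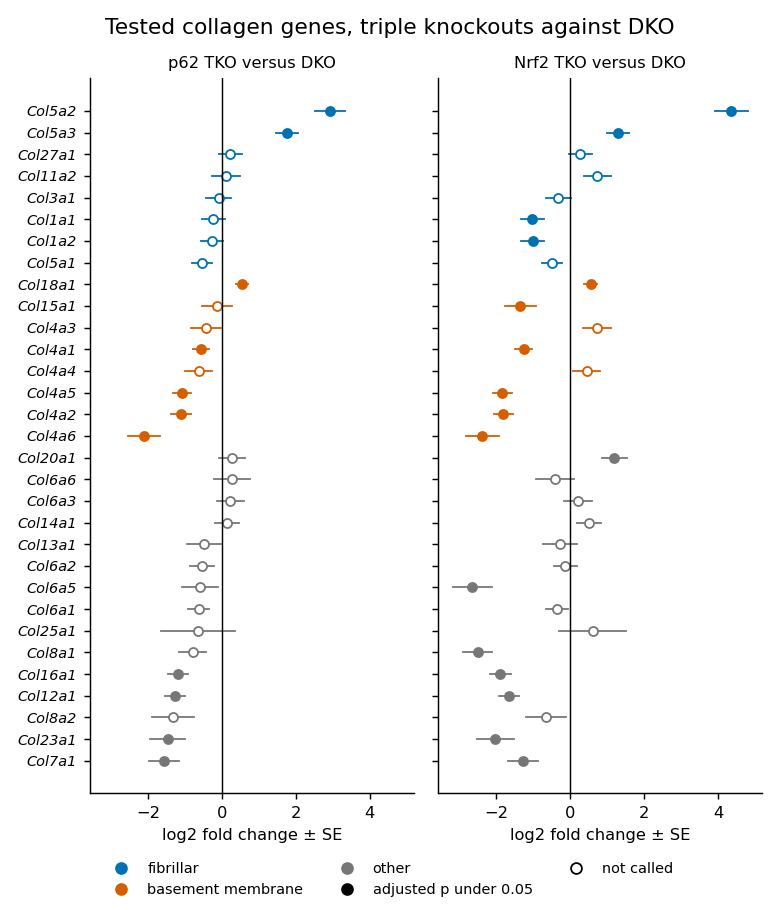
Log2 fold change (x axis, point, with a line of 1 SE to each side) of each tested collagen gene (y axis) in p62 TKO and in Nrf2 TKO, each against the same DKO libraries, coloured by class, with filled points for an adjusted p under 0.05. Col5a2 lies farthest to the right at 2.92 and 4.36 and Col4a6 lies far to the left at -2.11 and -2.38; the increase of Col18a1 was not called with total counts alone in either and turned to -0.14 in Nrf2 TKO.

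Cell type markers differed between the same groups. In p62 TKO against DKO 22.3% of all genes were called higher and 21.5% lower, and in Nrf2 TKO against DKO 26.7% and 29.2%. All 10 cholangiocyte markers were called lower than in DKO in each triple knockout, as were 5 of 11 myofibroblast and portal fibroblast markers in p62 TKO and 4 in Nrf2 TKO. Of 11 markers of hepatic stellate cells 3 were called lower in p62 TKO, and 6 higher and 2 lower in Nrf2 TKO. All 6 hepatocyte markers were called higher than in DKO in both. Of 6 macrophage markers 1 was called higher in p62 TKO, and 1 higher and 5 lower in Nrf2 TKO. Of 8 endothelial markers 2 were higher and 1 lower in p62 TKO and 2 higher and 2 lower in Nrf2 TKO, near the shares over all genes. The part of these cell types in the collagen changes was not tested. Of the 15 basement membrane partners, 12 were called lower in p62 TKO and 11 in Nrf2 TKO (medians -1.38 and -1.71). Agrn had -1.66 ± 0.16 in p62 TKO (adjusted p = 6.8e-08) and -2.11 ± 0.17 in Nrf2 TKO (adjusted p = 8.8e-10). Lama5 had -2.52 ± 0.25 in p62 TKO (adjusted p = 1.1e-07) and -2.97 ± 0.26 in Nrf2 TKO (adjusted p = 4.4e-09).

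Against WT, the triple knockouts had more RNA of chains of collagens I, III, IV and VI. In p62 TKO against WT 18 collagen genes were called higher and 5 lower of 31. Over all genes, 28.0% were called higher, 22.9% lower and 50.9% in either direction. In Nrf2 TKO against WT 15 were called higher and 4 lower. Of the 15851 genes, 22.4% were called higher, 17.1% lower and 39.5% in either direction. Col1a1 was higher than in WT by 3.57 ± 0.36 in p62 TKO (adjusted p = 1.2e-07) and by 2.77 ± 0.35 in Nrf2 TKO (adjusted p = 5.1e-06). Col3a1 was higher by 3.11 ± 0.38 in p62 TKO (adjusted p = 1.2e-06) and by 2.89 ± 0.37 in Nrf2 TKO (adjusted p = 6.3e-06). Of the type VI chains, Col6a3 was called in both, while the calls of Col6a1 (0.86 ± 0.31, adjusted p = 0.025) and Col6a2 (1.13 ± 0.35, adjusted p = 0.010) in p62 TKO were lost without p62 TKO replicate 1 (0.49 and 0.74). That of Col6a1 was also lost without filter (0.89) and without WT replicate 1 (0.84) or 2 (0.76). Col5a2 was higher by 6.14 ± 0.50 in p62 TKO (adjusted p = 6.9e-09) and by 7.58 ± 0.53 in Nrf2 TKO (adjusted p = 3.6e-09; 6.93 without Nrf2 TKO replicate 1). Col27a1 fell by 2.55 (SE 0.31, adjusted p = 1e-06) in p62 TKO and by 2.50 (SE 0.31, adjusted p = 3.5e-06) in Nrf2 TKO. Col15a1 was called lower in Nrf2 TKO (-1.75 ± 0.42, adjusted p = 0.0026) and not in p62 TKO (-0.54 ± 0.40, adjusted p = 0.27).

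In p62 TKO against Nrf2 TKO 5 collagen genes were called higher and 3 lower of 31. Among all genes tested, 10.4% were called higher, 7.11% lower and 17.5% in either direction. On total counts alone 7 were higher and 1 lower. Col8a1 was higher in p62 TKO (1.72 ± 0.40, adjusted p = 0.0047), with 3.43 to 6.94 CPM in p62 TKO and 0.792 to 2.30 CPM in Nrf2 TKO, and so was Col6a5 (2.06 ± 0.53, adjusted p = 0.0098, or 0.053 with only the 2 groups in the fit). Col5a2 was lower in p62 TKO (-1.44 ± 0.39, adjusted p = 0.014), and that call was lost with only the 2 groups in the fit (-1.45), without Nrf2 TKO replicate 1 (-0.83) and without p62 TKO replicate 4 (-1.26). Col1a1, Col1a2 and Col3a1 did not pass (0.80 ± 0.31, 0.73 ± 0.31 and 0.22 ± 0.34, with adjusted p-values of 0.083, 0.11 and 0.71). The count of 8 calls was 2 without p62 TKO replicate 4, 3 without Nrf2 TKO replicate 1, 4 without p62 TKO replicate 3, 5 without p62 TKO replicate 1 or Nrf2 TKO replicate 3, 3 without filter and 2 with only the 2 groups in the fit.

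Of the enzymes and chaperones that mature collagen chains, some were called higher and some lower in DKO. Of 18 listed genes 17 were tested, and in DKO against WT 8 were called higher and 8 lower (median 0.20), beside 37.1% and 32.3% of all genes. Ppib (-1.63 ± 0.13, adjusted p = 3.8e-10) and P4hb (-1.99 ± 0.17, adjusted p = 4.6e-10), a prolyl isomerase and the beta subunit of prolyl 4-hydroxylase, fell. Plod1, a lysyl hydroxylase, fell too (-1.30 ± 0.13, adjusted p = 7.2e-09), while Crtap, a subunit of the prolyl 3-hydroxylase complex, rose (2.46 ± 0.25, adjusted p = 8e-09). In Atg5 KO 5 were called higher and 6 lower, beside 18.6% and 11.3% of all genes, and in TSC1 KO 8 were called lower, beside 7.60%. In p62 TKO against DKO 4 were higher and 3 lower, beside 22.3% and 21.5% of all genes. In Nrf2 TKO against DKO 3 were higher and 4 lower, beside 26.7% and 29.2%. The counts of both triple knockouts lay near or below those shares. P4hb was higher by 1.04 ± 0.16 in p62 TKO (adjusted p = 2.2e-05) and by 0.77 ± 0.16 in Nrf2 TKO (adjusted p = 0.00034). P4hb, a protein disulfide isomerase, and Ppib also fold secreted proteins other than collagen.

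Lox, Loxl2 and Sparc, of the genes that cut procollagen ends and crosslink the fibrils, were higher in DKO than in WT. Of 14 listed genes 11 were tested, and 8 were called higher and 2 lower in DKO against WT (median 2.03), beside 37.1% and 32.3% of all genes. In Atg5 KO 7 were higher and 1 lower (median 1.08), beside 18.6% and 11.3% of all genes, and the median in TSC1 KO was -0.08. In DKO, Lox and Loxl2, the lysyl oxidases that crosslink collagen, rose by 4.82 ± 0.52 (adjusted p = 2.2e-08) and 3.45 ± 0.36 (adjusted p = 1.4e-08), and Sparc, a collagen-binding protein, by 2.93 ± 0.28 (adjusted p = 3.9e-09). Loxl1 (3.43 ± 0.50, adjusted p = 2.7e-06) is in this list and among the myofibroblast markers. In p62 TKO against DKO 1 was called higher and 3 lower, beside 22.3% and 21.5% of all genes. In Nrf2 TKO against DKO 1 was called higher and 3 lower, beside 26.7% and 29.2%. Lox had -1.08 ± 0.37 in p62 TKO (adjusted p = 0.022) and -1.98 ± 0.39 in Nrf2 TKO (adjusted p = 0.00018). Of 10 collagen receptors 9 were tested, and 5 were called higher and 1 lower in DKO against WT, 5 higher in Atg5 KO and 1 higher in TSC1 KO. The shares of all genes called higher in these comparisons were 37.1%, 18.6% and 8.79%. Ddr1, a receptor kinase that fibrillar and type IV collagen activate, rose by 5.14 ± 0.27 in DKO (adjusted p = 1.6e-12), 2.66 ± 0.27 in Atg5 KO (adjusted p = 3.2e-07) and 1.51 ± 0.27 in TSC1 KO (adjusted p = 0.00074). It fell by 1.33 in p62 TKO (SE 0.22, adjusted p = 3.6e-05) and 2.19 in Nrf2 TKO (SE 0.22, adjusted p = 4e-08), each against DKO on the log2 scale.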

How the data were processed

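Gene counts of 24 mouse liver libraries were used as deposited, 10494080 to 13057467 counts per library, which are whole-number counts of reads per Ensembl gene. HISAT2 2.1.0, Trimmomatic 0.36, HTSeq and the build GRCm38 are named in the submitters' processing notes as what the authors worked with. Per the labels, libraries came from a stranded poly-A kit, and the strand setting of the counting was not stated. Symbols, types and exon lengths were taken from GENCODE M21, which named 32938 of the 33019 identifiers. The other 81 stayed in the fit.

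Counts were filtered with filterByExpr (minimum count 10), scaled by TMM and fitted with edgeR 4.0.16 (robust quasi-likelihood, 18 residual degrees of freedom, all 6 genotypes in 1 model, limma 3.58.1, R 4.3.3). The p-values were adjusted by the Benjamini-Hochberg method over 15851 genes. The log2 fold change and its SE come from that fit, and CPM and ratios from the counts. Each result was recomputed with DESeq2 1.42.0, with the size factors of that tool, with total counts as the only scale, without filter, with a fit of the compared genotypes only, with replicate numbers as a blocking term, and without each library in turn. The scripts were tested on simulated data. The filter left 13 collagen genes untested.

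Any member could be named. Values per library were given for the members of each class with the highest mean level and with the largest called change from WT. Of each other list, the genes with the smallest adjusted p and the highest level were named. The members and lists were chosen with earlier results of these data known. Promoter windows are from RefSeq (GRCm38.p6), and no protein sequences were used here.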

Additional observations from a re-analysis of the deposited data

Results flagged for a closer look

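Of 186 groups of 4 libraries, 1 for each tested collagen gene and genotype, 12 held a library far from the other 3, where chance alone gives about 1 in 20 groups. Among the fibrillar genes, Col5a2 stood at 1578.4 CPM in Nrf2 TKO replicate 1 (459.9 to 532.1 in the other 3), Col3a1 at 260.2 CPM in DKO replicate 4 (201.4 to 208.6) and Col1a2 at 15.3 CPM in WT replicate 3 (9.01 to 9.76). Among the type IV chains, Col4a3 stood at 2.41 CPM in p62 TKO replicate 1 (0.894 to 1.10), Col4a6 at 3.35 CPM in Nrf2 TKO replicate 2 (1.55 to 1.68) and Col4a4 at 0.953 CPM in WT replicate 3 (0.454 to 0.487). Among the other types, Col23a1 stood at 1.98 CPM in p62 TKO replicate 1 (0.368 to 0.545) and at 1.3 CPM in DKO replicate 2 (2.74 to 2.91). Col7a1 was at 0.239 CPM in Atg5 KO replicate 3 (0.991 to 1.08), Col14a1 at 15.7 CPM in TSC1 KO replicate 1 (25.9 to 28.0) and Col13a1 at 0.569 CPM in TSC1 KO replicate 2 (2.51 to 2.56). Col16a1 was at 4.23 CPM in WT replicate 3 (3.23 to 3.40).

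For 9 genes the change with the Tsc1 deletion differed between livers without and with Atg5 by the interaction term of edgeR, whose SEs and adjusted p-values stand with the results. The difference was positive for Col6a5 (4.55), Col7a1 (3.36), Col12a1 (2.03), Col16a1 (1.88), Col4a2 (1.79) and Col4a1 (1.21). It was negative for Col5a2 (-5.09), Col5a3 (-2.41) and Col27a1 (-1.16).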

How the results depend on the processing

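The count of 8 calls in p62 TKO against Nrf2 TKO was 3 without the filter, 4 with the replicate block and 2 with only these groups in the fit, and 2 to 9 when 1 library was left out. In p62 TKO against DKO leaving out 1 library gave 9 to 17 calls, with 17 without p62 TKO replicate 1, beside 11 with all. The counts of the other 10 comparisons stayed within 1.5 times under every alternative run. Of 207 calls of a gene in a comparison, 1 was lost with DESeq2, 1 with its size factors, 20 without filter and 36 when some library was left out. With only the compared genotypes in the fit 11 of 201 were lost. Total counts alone lost 17 with the direction kept. On that scale 4 further values turned round and did not pass, namely Col11a2 in DKO against WT (0.12), Col18a1 in DKO against Atg5 KO (0.22), in Nrf2 TKO against DKO (-0.14) and in p62 TKO against WT (0.01). The cause was not tested. Leaving Col15a1 and Col18a1 out of the basement membrane class gave medians of 2.51 in DKO, 1.61 in Atg5 KO and 1.48 in TSC1 KO against WT. Col4a4, Col4a5 and Col4a6 reached the filter in knockout libraries alone, so a higher level in some knockout was bound to appear for them. Col4a3 reached it in only 1 WT library. In TSC1 KO Col4a1 and Col4a2 had -0.30 and -0.33 and did not pass.

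Replicate numbers did not pair the samples: in 0 of 15 pairs of genotypes did every same-numbered pair of libraries correlate above 0.1 (r -0.282 to 0.261), and with the replicate block 11 of the 207 calls were lost. The filter on low counts left out 13 collagen genes, and without it 3 of them were called higher in DKO against WT, 2 in p62 TKO against WT and 1 in DKO against TSC1 KO, with at most 35 reads of any of them in a library.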
